A study of Homo sapiens with 2 samples.

Results

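The Toll-like receptors TLR1 to TLR10 were described in HSC-3 cells, an established human line of oral squamous cell carcinoma, with and without FIN56, a small molecule that induces ferroptosis, the iron-dependent cell death driven by lipid peroxidation. The 10 members were taken by gene symbol from the 60616 genes listed in the gene tables. The series holds 2 bulk RNA-seq libraries of poly(A) RNA from cells of the same line grown in the same serum-containing medium. The control library came from HSC-3 cells in 0.1% DMSO, the vehicle, and the treated library from HSC-3 cells in 1 µM FIN56 for 48 h, where the labels give a time for the FIN56 culture only. Each condition is 1 library, so no difference below has a replicate check or a test. Only the precision of counting is given, as 95% Clopper-Pearson intervals, and these compare the 2 libraries rather than the 2 conditions.

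Toll-like receptors are membrane proteins with a leucine-rich ligand-binding face and a cytoplasmic TIR domain that recruits adaptors. Receptors of the plasma membrane bind bacterial surface components, while those of endosomes bind nucleic acids. Most signal through MYD88 to NF-kB and inflammatory cytokines, whereas TLR3, and TLR4 from endosomes, signal through TICAM1 (TRIF) to IRF3 and type I interferon. Squamous keratinocytes are known to carry several of these receptors beside their main site of expression in myeloid and B cells.

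The libraries summed to 70184517 expected counts in DMSO and 73062209 in FIN56, so a gene at 0 can still stand at up to 0.0427 and 0.0411 CPM, counts scaled to library size. Mitochondrial genes took 4.77% and 5.75% of the counts. All 6 markers of squamous epithelium were abundant in both libraries, and KRT5, the basal keratin, stood at 3109 TPM (a level per length) in DMSO and 2517 TPM in FIN56. Of 8 leukocyte markers, PTPRC, CD3E and MS4A1, which define leukocytes, T cells and B cells, were at 0 in both libraries, and LYZ had 1 and 0 counts. The myeloid markers HLA-DRA, CSF1R and ITGAM were detected, with 211, 110 and 42 counts in DMSO and 190, 106 and 31 in FIN56 (3.96, 0.70 and 0.42 TPM, then 3.50, 0.75 and 0.20 TPM). The summed level of the list was 90.8 TPM in DMSO and 42.0 TPM in FIN56, nearly all of it CD68, a lysosomal protein that is not restricted to macrophages, with a count ratio of 0.44. Of the 3 stromal markers, COL1A2 was at 0 in both libraries, PECAM1 had 0 and 1 counts, and COL1A1 had 919 and 562 counts, so the list summed to 6.36 and 3.35 TPM. The part of these genes in the receptor values was not tested. In bulk RNA, fewer cells that express a receptor and less RNA per cell cannot be told apart.

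TLR1 and TLR6 are near copies of each other, and their sequences are shown first because the counts of both rest on how reads were divided between them. Both bind lipopeptides as partners of TLR2, and both are read from the minus strand of chromosome 4 (GRCh38). TLR10 spans chr4:38772238-38782990, TLR1 chr4:38790677-38856817 and TLR6 chr4:38822897-38856817, so the TLR1 locus contains that of TLR6. In the GENCODE annotation, 1 of 10 TLR1 transcripts starts at the TLR6 start, 52026 bases before the start of the canonical TLR1 transcript. The coding parts of the canonical transcripts, each within 1 exon, were 76.1% identical over their alignment. The next closest pair among the 10 receptors, TLR6 and TLR10, was 60.6% identical. Of the 45 pairs of receptors, TLR1 with TLR6 was the 1 pair whose annotated transcripts shared any stretch of 75 bases or more. The canonical transcripts shared 6 identical runs of at least 50 bases, 532 bases in all, which made up 22.6% of the TLR1 coding part and 22.3% of that of TLR6. The longest run, 218 bases within the coding exon of both genes, is in capitals below with 20 bases on either side in lower case. A read that lies inside it matches both genes equally.
TLR1, chr4:38797216-38797473, minus strand: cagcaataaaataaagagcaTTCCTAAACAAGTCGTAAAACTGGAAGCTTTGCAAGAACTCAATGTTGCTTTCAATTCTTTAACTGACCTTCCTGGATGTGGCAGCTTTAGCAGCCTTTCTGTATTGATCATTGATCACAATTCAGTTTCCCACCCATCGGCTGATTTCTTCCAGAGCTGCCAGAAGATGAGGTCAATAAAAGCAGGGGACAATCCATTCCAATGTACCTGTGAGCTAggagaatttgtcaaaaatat
TLR6, chr4:38827843-38828100, minus strand: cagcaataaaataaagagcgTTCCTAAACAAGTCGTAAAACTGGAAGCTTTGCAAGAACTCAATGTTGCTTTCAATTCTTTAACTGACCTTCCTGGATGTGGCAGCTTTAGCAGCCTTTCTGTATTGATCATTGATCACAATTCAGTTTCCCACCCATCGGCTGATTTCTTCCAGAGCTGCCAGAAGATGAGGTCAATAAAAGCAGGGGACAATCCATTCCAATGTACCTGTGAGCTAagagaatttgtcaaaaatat

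**Figure D1:**
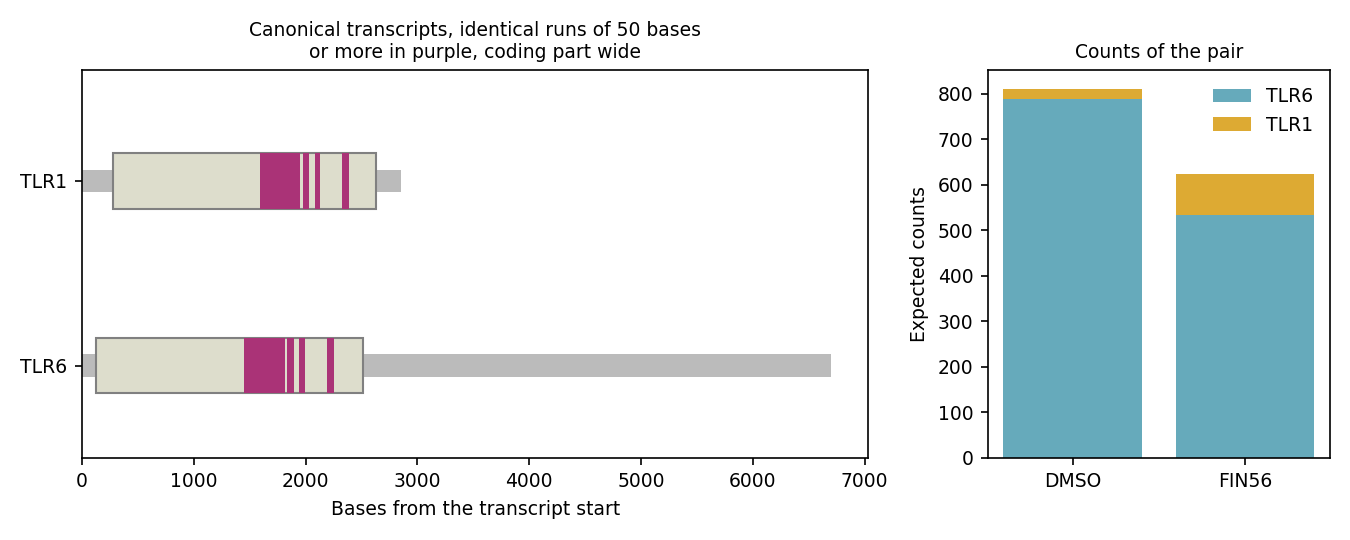
Left, the canonical transcripts of TLR1 and TLR6 drawn to scale in bases from their start, with the coding part wide and identical runs of at least 50 bases in purple. Right, expected counts of the pair in each library (1 library per condition, stacked bars), where TLR1 makes up 2.83% of the pair in DMSO and 14.5% in FIN56.

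Of the 10 receptors, 7 had any count, and 6 reached 10 expected counts in the DMSO library (TLR1 to TLR6). TLR2, TLR3 and TLR6 exceeded 1 TPM in DMSO, and TLR4 joined them in FIN56. TLR7, TLR8 and TLR9, the endosomal sensors of single-stranded RNA and of CpG DNA, had 0 counts in both libraries. Across the 10 receptors the summed level was 25.8 TPM in DMSO and 23.4 TPM in FIN56. TLR2 made up 46.9% of it in DMSO and 41.1% in FIN56, TLR3 34.1% and 37.3%, and TLR6 15.0% and 10.9%.

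**Figure D2:**
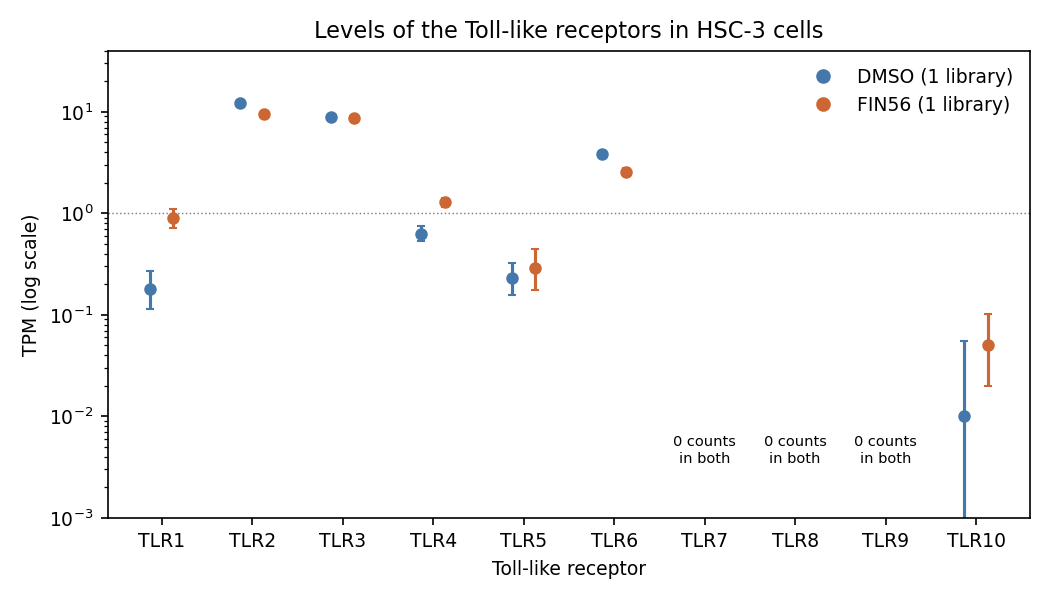
TPM of each receptor on a log axis in the DMSO (blue) and FIN56 (orange) libraries, with bars for the 95% counting interval and a dotted line at 1 TPM. TLR2, TLR3 and TLR6 lie above the line in both libraries, TLR4 only in FIN56, and TLR7, TLR8 and TLR9 had no count.

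In the DMSO library the levels ran in the order TLR2 at 12.1 TPM (interval 11.5 to 12.8), TLR3 at 8.80 TPM (8.27 to 9.36) and TLR6 at 3.88 TPM (3.61 to 4.16). TLR4 followed at 0.63 TPM (0.531 to 0.742), then TLR5 at 0.23 TPM (0.156 to 0.326) and TLR1 at 0.18 TPM (0.114 to 0.270). The intervals of TLR5 and TLR1 overlapped, and those of the other neighbours down to TLR5 did not. TLR10 was last at 0.01 TPM.

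In the FIN56 library TLR2 at 9.59 TPM (9.07 to 10.1) and TLR3 at 8.71 TPM (8.18 to 9.26) overlapped in their intervals. TLR6 stood at 2.55 TPM (2.34 to 2.77), TLR4 at 1.28 TPM (1.15 to 1.43), TLR1 at 0.89 TPM (0.720 to 1.10) and TLR5 at 0.29 TPM (0.177 to 0.448). The order thus differed from DMSO only in the places of TLR1 and TLR5. The level of TLR2 was 19.2 times that of TLR4 in DMSO and 7.49 times in FIN56. It was 67.3 times that of TLR1 in DMSO and 10.8 times in FIN56. These intervals hold counting error and no spread between cultures.

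The question put to each receptor was how its counts compared between vehicle and FIN56. The measure was the ratio of expected counts, FIN56 over DMSO, after division by the library totals, and a ratio of at least 1.5 or at most 1/1.5, the fold used in the study, was taken as past the threshold. Genes with at least 10 counts in both libraries together were compared. Of the 6 receptors that reached this minimum, 2 were past the threshold upward (TLR4 and TLR1), while 10.5% of all 20364 genes compared were. Another 2 were past it downward (TLR6 and TLR5), against 14.3% of all genes. All 6 also reached 50 counts together, where 5.98% of genes were past the threshold upward and 10.1% downward. The counting interval lay above 1 for TLR1 and TLR4, as for 28.3% of all genes, and below 1 for TLR2 and TLR6, as for 28% of all genes. The median log2 ratio of the 6 receptors was -0.15 and that of all genes compared was -0.01.

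**Figure D3:**
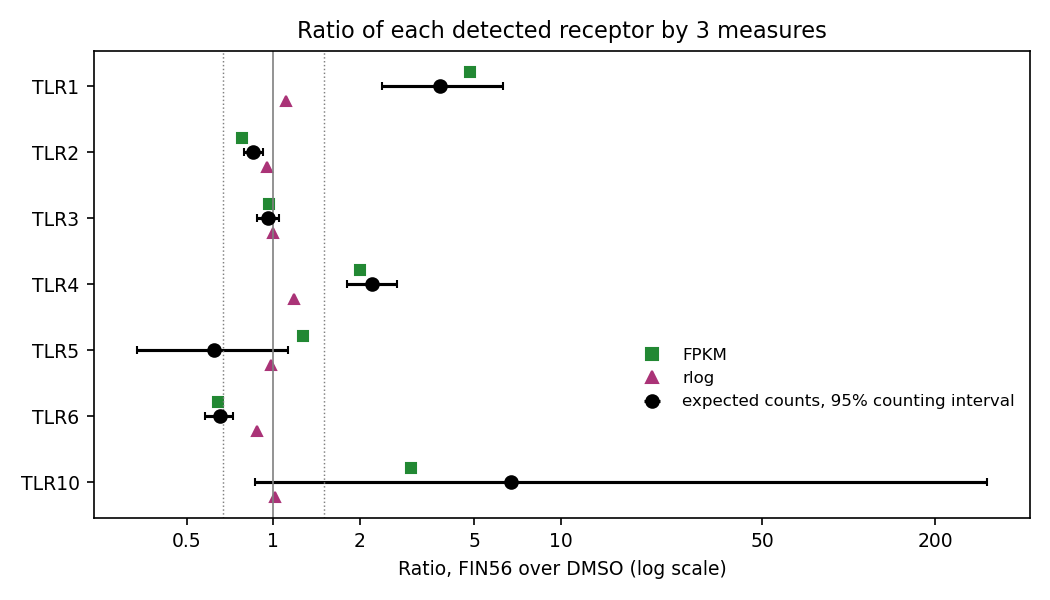
Ratio of FIN56 to DMSO on a log axis for the 7 receptors with any count, from expected counts scaled by library totals (black circles, bars for the 95% counting interval), FPKM (green squares) and rlog values (purple triangles). Dotted lines mark 1.5 and 1/1.5. TLR1 and TLR4 lie right of 1 and TLR6 left of 1 by all 3 measures, whereas TLR5 lies left of 1 by counts and right of it by FPKM.

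TLR4, the receptor for bacterial lipopolysaccharide, spans chr9:117704175-117724735 on the plus strand. It had 143 expected counts in DMSO and 327 in FIN56, a ratio of 2.20 (interval 1.80 to 2.69). Its level per length was 0.42 and 0.84 FPKM. The FIN56 library held more TLR4 by each measure and scaling tried, with ratios from 1.18 on the regularized log (rlog) scale to 2.25 with median-of-ratios scaling. Among the 15777 genes with at least 50 counts, 247 had a higher ratio.

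TLR1, which pairs with TLR2 to bind triacylated lipopeptides, had 22.99 expected counts in DMSO and 90.57 in FIN56, a ratio of 3.78 (interval 2.38 to 6.29). Its level was 0.12 and 0.58 FPKM. Among the genes with at least 50 counts, 68 had a higher ratio. TLR1 and TLR4 belong to the genes that the study picked in part by their FPKM ratio in these same libraries, so their direction here is not independent evidence.

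TLR6, which pairs with TLR2 to bind diacylated lipopeptides, had 788.01 expected counts in DMSO and 533.43 in FIN56, a ratio of 0.65 (interval 0.581 to 0.726). Its level was 2.60 and 1.67 FPKM. With median-of-ratios scaling the ratio was 0.667, on the threshold itself. TLR1 and TLR6 thus lay on opposite sides of the threshold. They were also the 2 receptors without whole expected counts (tolerance 0.005), while the 5 others with any count had whole ones. Summed, the pair had 811 counts in DMSO and 624 in FIN56, a ratio of 0.74 (interval 0.665 to 0.821) that is inside the threshold. TLR1 took 2.83% of the pair in DMSO and 14.5% in FIN56, and the level of TLR6 was 21.6 times that of TLR1 in DMSO and 2.87 times in FIN56. The interval of each gene takes the division of shared reads as given, so it leaves that error out.

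TLR2, the shared partner of TLR1 and TLR6, spans chr4:153684070-153706260 on the plus strand and was the receptor with the highest count and level. It had 1434 counts in DMSO and 1272 in FIN56, a ratio of 0.85 (interval 0.790 to 0.920). Its level was 8.10 and 6.28 FPKM. The ratio lay inside the threshold, with an interval below 1.

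TLR3, the endosomal receptor for double-stranded RNA, spans chr4:186068911-186088073 on the plus strand. It had 1019 counts in DMSO and 1016 in FIN56, a ratio of 0.96 (interval 0.877 to 1.05). Its level was 5.89 and 5.70 FPKM. The interval includes 1 and lies inside the threshold on both sides. It compares the 2 libraries and holds no spread between cultures, so it sets no bound on a change with FIN56.

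TLR5, the receptor for flagellin, spans chr1:223109404-223143248 on the minus strand. It had 31 counts in DMSO and 20 in FIN56, a ratio of 0.62 whose interval, 0.335 to 1.12, includes 1. By FPKM it went the other way, from 0.15 to 0.19, a ratio of 1.27. The length implied by its deposited count and FPKM was 2945 bases in DMSO (2850 to 3046 from the rounding of FPKM) and 1441 bases in FIN56 (1404 to 1480). It differed beyond this rounding for TLR1 too, at 2730 bases (2621 to 2848) and 2137 bases (2119 to 2156), beside a count ratio of 3.78 and an FPKM ratio of 4.83. For TLR2 it was 2522 and 2772 bases, for TLR3 2465 and 2440 bases, for TLR4 4851 and 5328 bases, and for TLR6 4318 and 4372 bases. In each of these receptors too, the ranges from rounding did not overlap between the libraries. For TLR2 they were 2521 to 2524 and 2770 to 2774 bases, and for TLR4 4794 to 4910 and 5297 to 5360 bases. Such a range is narrow where FPKM is high, and implied lengths were not compared over all genes. The differences in implied length are therefore not read as a trait of the receptors. No direction is given for TLR5.

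TLR10, a member of the TLR1 group without an agreed ligand, had 1 count in DMSO and 7 in FIN56. It did not reach the minimum of 10 counts, and its ratio of 6.72 had an interval of 0.864 to 303. TLR7 on chrX:12867072-12890361, TLR8 on chrX:12906620-12923169 and TLR9 on chr3:52221080-52225645 stood at 0 of 70184517 and 0 of 73062209 counts, and no ratio can be given for them.

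The study selected genes by their fold change of FPKM, and any further filter it used was not applied here. With the fold of 1.5 taken on FPKM, among genes with FPKM above 0 in both libraries, 3 of 7 receptors were past the threshold upward (TLR1, TLR4 and TLR10), against 14.7% of all genes. TLR6 alone was past it downward, against 17.3%. TLR10 passed at 0.01 and 0.03 FPKM, where the deposited precision is 0.01 FPKM.

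Promoter sequences of RefSeq (GRCh38.p14), from 250 bases before to 50 bases after the start, were at hand for 7 members and not for TLR1, TLR7 and TLR10. They were searched on both strands for ACTTCC (the core of ETS sites), TTCNNNGAA (STAT), the paired core of the interferon-stimulated response element and the NF-kB consensus. They occurred, in this order, in 22.8%, 7.66%, 3.57% and 5.91% of 35116 promoters of the same length. None of the 7 windows held an NF-kB match. The ETS letters occurred in 6 of them, all but that of TLR6. TLR4, which was past the threshold upward on whole counts, and TLR3, whose ratio was closest to 1, are shown with matches in capitals. TLR4 held 2 ETS matches, which begin 173 and 101 bases before the start. TLR3 held 2 STAT matches, which begin 178 and 50 bases before the start, then 1 interferon-type match and 1 ETS match. A match is a description of letters and not a bound site.
TLR4, chr9:117704153-117704452, plus strand: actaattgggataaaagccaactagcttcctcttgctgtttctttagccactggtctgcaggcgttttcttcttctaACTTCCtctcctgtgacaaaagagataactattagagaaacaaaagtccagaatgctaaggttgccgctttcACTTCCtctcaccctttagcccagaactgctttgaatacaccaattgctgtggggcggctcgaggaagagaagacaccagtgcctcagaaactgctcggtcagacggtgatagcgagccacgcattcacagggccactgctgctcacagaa
TLR3, chr4:186068906-186069205, plus strand: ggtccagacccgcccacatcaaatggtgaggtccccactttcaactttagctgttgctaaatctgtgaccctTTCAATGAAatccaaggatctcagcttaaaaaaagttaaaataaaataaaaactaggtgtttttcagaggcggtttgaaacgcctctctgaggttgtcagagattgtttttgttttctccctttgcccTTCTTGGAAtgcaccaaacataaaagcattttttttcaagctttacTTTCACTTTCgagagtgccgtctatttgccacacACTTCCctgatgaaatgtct

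The other genes of the pathway were taken from 10 lists with 97 genes, of which 87 reached 10 counts. Of these, 7 (8.05%) were past the threshold upward and 6 (6.90%) downward, below the 10.5% and 14.3% of all genes. The counting interval lay above 1 for 35 (40.2%) and below 1 for 31 (35.6%), above the 28.3% and 28% of all genes. An interval narrows as counts rise, and the genes were not matched on counts. These differences from all genes are therefore not read as a trait of the pathway. At 50 counts together 4 pathway genes were past the threshold upward and 5 downward, beside 5.98% and 10.1% of all genes. The number of pathway genes that reached 50 counts is not given here, so these counts are not compared with those shares. The median log2 ratio over the lists was -0.02.

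**Figure D4:**
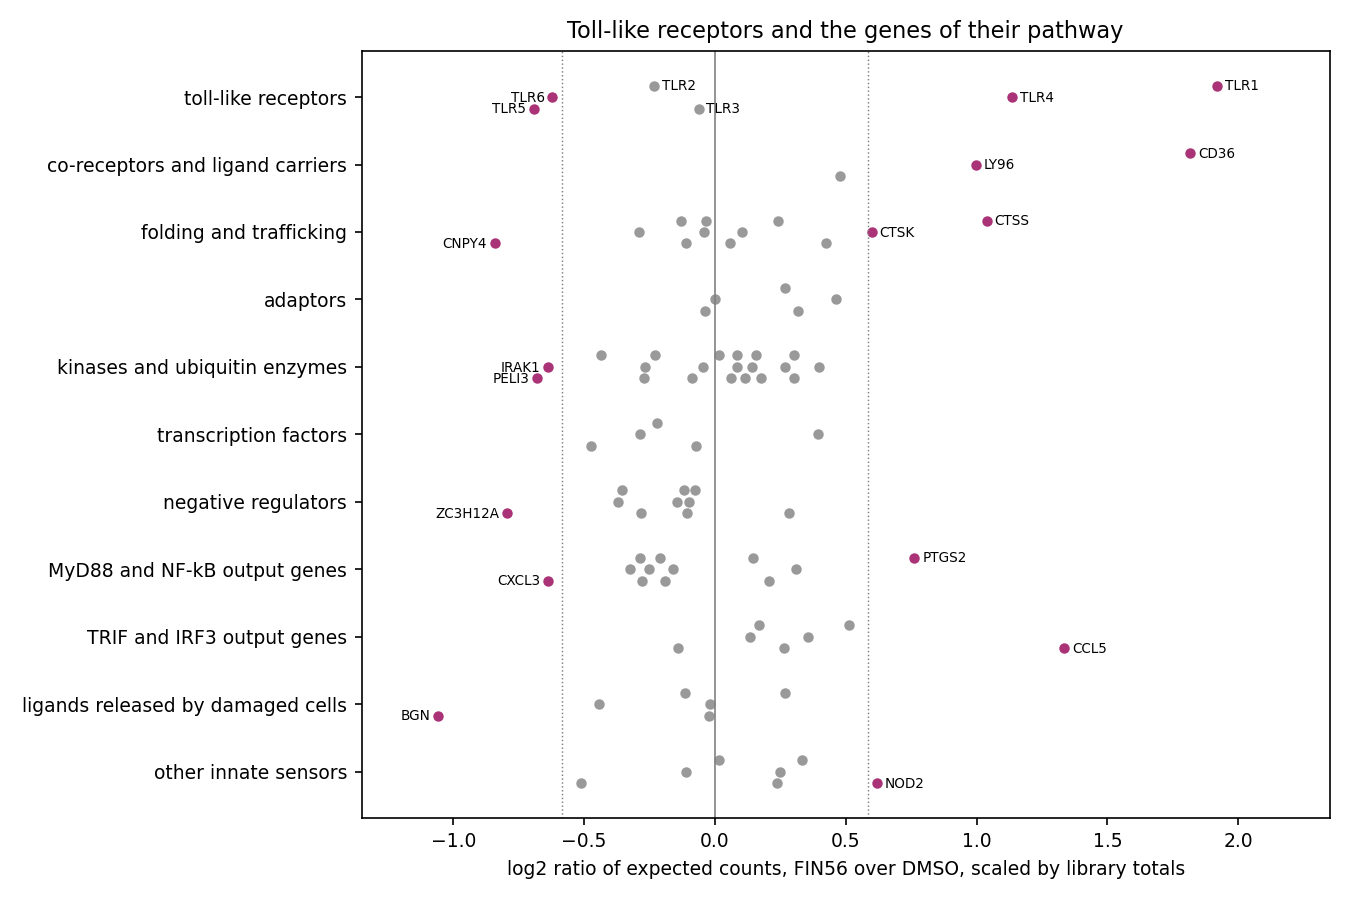
Log2 ratio of expected counts, FIN56 over DMSO, for every gene with at least 10 counts in the receptor list and the 10 pathway lists (1 point per gene, dotted lines at 1.5 and 1/1.5, purple points past them). TLR1 and TLR4 lie far to the right together with CD36, LY96, CTSS and CCL5. Of these, CD36 (3 and 11 counts) and CCL5 (8 and 21 counts) rest on few counts, and no intervals are drawn. The adaptors and transcription factors lie between the lines, while 10.5% of all genes were past them upward and 14.3% downward. The vertical offsets only separate points.

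Of 6 co-receptors and ligand carriers, 3 reached the minimum and 2 were past the threshold upward, against 10.5% of all genes. At 50 counts together 1 remained, LY96. LY96, the MD-2 protein that binds lipopolysaccharide on TLR4, had 313 counts in DMSO and 651 in FIN56, a ratio of 1.998 (interval 1.74 to 2.29) and a level of 15.1 and 30.8 TPM. CD14, which loads lipopolysaccharide onto that complex, had 339 and 492 counts, a ratio of 1.39 (interval 1.21 to 1.61) inside the threshold. TLR4 and both of its partners at the cell surface had more counts in the FIN56 library, CD14 by less than 1.5 times. Other listed genes that serve TLR4 were mixed. The chaperone-like factor CNPY4 had a ratio of 0.56 and the adaptor MYD88 1.38. The intervals of the adaptors TIRAP and TICAM2 included 1. CD36, a scavenger receptor that serves TLR2 with TLR6, had 3 and 11 counts, and its interval of 0.930 to 19.7 includes 1. LBP, CD180 and LY86 were at 0 in both libraries.

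Of 13 genes for folding, trafficking and cleavage of the receptors, 12 reached the minimum, 2 (16.7%) were past the threshold upward and 1 (8.33%) downward. The shares of all genes were 10.5% and 14.3%. CTSS, a lysosomal cysteine protease that can cleave endosomal receptors, had 1499 counts in DMSO and 3207 in FIN56, a ratio of 2.06 (interval 1.93 to 2.19). CTSK, a related protease, had 154 and 243 counts, a ratio of 1.52 (1.23 to 1.87). CNPY4, a chaperone-like factor for surface TLR4, had 427 and 248 counts, a ratio of 0.56 (0.475 to 0.654). UNC93B1, the chaperone that carries the endosomal receptors out of the endoplasmic reticulum, had 2292 and 1952 counts, a ratio of 0.82 (0.770 to 0.869), and so was well expressed where TLR7, TLR8 and TLR9 had no count.

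None of the 5 adaptors that reached the minimum, of 6, was past the threshold. Of all genes, 10.5% were past it upward and 14.3% downward, so a count of 0 among 5 does not set the adaptors apart. MYD88, the adaptor of nearly all members except TLR3, had 1873 counts in DMSO and 2690 in FIN56, a ratio of 1.38 (interval 1.30 to 1.46). TICAM1, the adaptor of TLR3 and TLR4, had 1369 and 1774 counts, a ratio of 1.24 (1.16 to 1.34). TIRAP, which bridges TLR2 and TLR4 to MYD88, had 462 and 482 counts, a ratio of 1.00 (0.880 to 1.14). TICAM2, which bridges TLR4 to TICAM1, had 109 and 137 counts, a ratio of 1.21 (0.932 to 1.57). The median log2 ratio of the list was 0.27.

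Of 20 kinases and ubiquitin enzymes, all reached the minimum, none was past the threshold upward and 2 (10%) were past it downward. The shares of all genes were 10.5% upward and 14.3% downward. IRAK1, the kinase that MYD88 recruits through IRAK4, had 19871 counts in DMSO and 13287 in FIN56, a ratio of 0.64 (interval 0.628 to 0.657). PELI3, a ubiquitin ligase that acts with IRAK1, had 732 and 475 counts, a ratio of 0.62 (0.554 to 0.701). IRAK4 itself, with 1811 and 2102 counts, had a ratio of 1.11 (1.05 to 1.19). TRAF6, the ubiquitin ligase downstream of the IRAK kinases, had 1939 and 2488 counts, a ratio of 1.23 (1.16 to 1.31). Within the MYD88 complex the ratios of MYD88 and IRAK1 thus lay on opposite sides of 1.

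The 5 transcription factors stayed within the threshold, between ratios of 0.72 and 1.32. With 10.5% of all genes past it upward and 14.3% downward, this does not set the 5 apart. IRF3, the factor downstream of TICAM1, had 3567 counts in DMSO and 3182 in FIN56, a ratio of 0.86 (interval 0.817 to 0.899). IRF7, which serves the endosomal receptors, had 1066 and 799 counts, a ratio of 0.72 (0.656 to 0.790).

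Of 10 negative regulators, ZC3H12A alone (10%) was past the threshold, downward, against 14.3% of all genes. ZC3H12A, an RNase that degrades cytokine mRNAs, had 6399 counts in DMSO and 3841 in FIN56, a ratio of 0.58 (interval 0.554 to 0.600). The median log2 ratio of the list was -0.13.

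Genes commonly induced by the receptors did not share a direction, and the medians of their 2 lists lay on opposite sides of 0. Of 12 genes downstream of MYD88 and NF-kB, 1 was past the threshold upward and 1 downward (8.33% each, against 10.5% and 14.3% of all genes). The list median was -0.20 on the log2 scale. The counting interval lay above 1 for 3 genes (25%) and below 1 for 7 (58.3%), against 28.3% and 28% of all genes. PTGS2, the inducible cyclooxygenase, had 929 counts in DMSO and 1641 in FIN56, a ratio of 1.70 (interval 1.56 to 1.84). CXCL3, a neutrophil chemokine, had 530 and 355 counts, a ratio of 0.64 (0.561 to 0.737). Of 10 genes downstream of TICAM1 and IRF3, 7 reached the minimum, with a median of 0.26. IFNB1 (2 and 6 counts), IFNL1 (0 in both libraries) and RSAD2 (0 and 1 counts) did not reach it. The counting interval lay above 1 for 5 of the 7 (71.4%) and below 1 for 0, against 28.3% and 28% of all genes. The genes were not matched on counts, so these interval shares are not read as a trait of either list. The share past the threshold upward was 14.3%, against 10.5% of all genes. CCL5, a T cell chemokine, was past the threshold at 8 and 21 counts, a ratio of 2.52 (1.07 to 6.58). CCL5 also belongs to the genes that the study chose in part on these libraries.

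Of 7 protein ligands that damaged cells release, 6 reached the minimum and BGN, a matrix proteoglycan, was past the threshold downward at 10 and 5 counts, with an interval of 0.129 to 1.54. Of 8 other innate sensors, 7 reached the minimum and NOD2, a sensor of bacterial peptidoglycan, was past the threshold upward at 5 and 8 counts, with an interval of 0.443 to 5.97. Both intervals include 1, so neither difference between the libraries exceeded counting error. The ligand list thus had 16.7% past the threshold downward, against 14.3% of all genes. The sensor list had 14.3% past it upward, against 10.5% of all genes.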

How the data were processed

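The labels and the study's methods name FastQC 0.11.7, STAR 2.6.1a, RSEM 1.3.1 and DESeq2 1.26.0 on GRCh38 (the methods are written for the tumor samples). The authors deposited expected counts, FPKM, TPM and log2-scale rlog values per gene. Values are as deposited, and expected counts were rounded for intervals, TMM and median-of-ratios factors only (edgeR 4.0.16, DESeq2 1.42.0). The stranded kit's counting setting, read length and the annotation release of the table are not given in the sources used here. GENCODE release 44, used for transcripts and positions, may differ from it. Without molecular identifiers reads are not independent molecules, so intervals and floors (3 counts per library) cover counting error only.

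Named genes were all 10 members, each list's genes past 1.5 or 1/1.5 with at least 10 counts together (up to 6 by counts), and 12 core genes: MYD88, TIRAP, TICAM1, TICAM2, IRAK1, IRAK4, TRAF6, UNC93B1, CD14, LY96, IRF3 and IRF7. Members and lists were chosen with earlier results of these data known. No gene was named for likeness of pattern, since 2 libraries give 1 ratio. The ratio and interval code was tested on simulated data. Alternatives were FPKM, TPM and rlog ratios, both scalings, other minimums, pseudocounts of 1 count and 0.1 FPKM, and a threshold of 2. The leukocyte list leaves out 1 of the markers fixed for it, which is not reported here.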

Additional observations from a re-analysis of the deposited data

How the results depend on the processing

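No paired analysis was possible because DMSO and FIN56 are represented by a single library apiece. TLR5 reversed with FPKM (ratio 1.27), TPM (1.26) and a pseudocount of 0.1 FPKM (1.16), and no other receptor changed direction. With rlog values, which are shrunk toward each other by construction, TLR1 stood at 1.11, TLR2 at 0.951, TLR4 at 1.18 and TLR6 at 0.879, so 0 receptors and 0 pathway genes were past the threshold either way. Of all genes, 0.0344% were past it upward and 0.0786% downward with rlog values, so a count of 0 does not set these genes apart. TLR2 was 0.775 by FPKM and 0.778 with 0.1 FPKM added, outside the counting interval of its count ratio. The number of receptors past the threshold downward was 1 in place of 2 with FPKM, TPM, 0.1 FPKM added and median-of-ratios scaling (where TLR6 stood at 0.667), and 0 at a threshold of 2. The shares of all genes downward were, in the same order, 14.4%, 13.4%, 10.3%, 13.3% and 6.17%. With TLR1 and TLR6 counted together, an alternative chosen after seeing the data, 1 receptor was past the threshold upward (TLR4) and 1 downward (TLR5). The number upward was 2 in the settings other than this one, rlog values (0) and no minimum, where TLR10 made it 3. With no minimum 13.8% of all genes were past it upward. The FPKM setting here kept the minimum of 10 counts, which TLR10 did not reach. The count of 3 given earlier for FPKM was without that minimum and included TLR10. Of pathway genes, 4 in place of 7 were past the threshold upward at 50 counts together or at 10 counts in each library, and 3 at a threshold of 2, where 1 in place of 6 was past it downward. Of all genes, 5.98% and 6.65% were past it upward with these minimums. The number of pathway genes that reached them is not given here, so the 4 are not compared with these shares. At a threshold of 2, which kept the 87 pathway genes with at least 10 counts, the shares of all genes were 5.20% upward and 6.17% downward. The causes of these differences were not tested beyond what each setting removes. Depth limits the genes with few counts, among them TLR5, TLR10, CD36, BGN and NOD2, whose intervals include 1.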
